A study of Mus musculus with 18 samples.

Results

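The genes of the mouse mitochondrial genome were followed in RNA-seq and Ribo-seq of the embryonic cerebral cortex. They were taken as all genes whose symbol starts with mt-, which gave 37 of 55153 genes in the RNA-seq count table: 13 protein genes, 2 rRNA genes and 22 tRNA genes. All 37 lie on the mitochondrial chromosome (MT in RefSeq GRCm38.p6, the same build as mm10), are transcribed without introns, and cover positions 1 to 15422 almost without gaps. The cortices were taken at embryonic day 15.5. The labels give the strain as C57BL/6, whereas the study's methods give a mixed background for the floxed lines. Ctrl was labelled wild type, *F*-cKO carried Fto f/f with Emx1-cre, and *M*-cKO carried Mettl3 f/f with Emx1-cre. Each group had 3 RNA-seq and 3 Ribo-seq libraries, 18 in all. Emx1-cre acts in the dorsal forebrain lineage that gives the excitatory neurons and glia of the cortex, so that vessels, blood and cells arriving from other brain regions in the *F*-cKO and *M*-cKO cortices keep the targeted gene.

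The mitochondrial genome encodes core subunits of the respiratory chain, while the remaining subunits and every protein that copies, transcribes and translates this genome are encoded in the nucleus. Both strands are transcribed as long precursors, from which the tRNAs are cut out, which frees the rRNAs and mRNAs between them. The mRNAs are translated inside the organelle by mitochondrial ribosomes, which are insensitive to cycloheximide, the drug used here to hold cytosolic ribosomes on their mRNAs. Fto removes and Mettl3 deposits methyl groups on adenosines of RNA, Mettl3 as the catalytic subunit of the nuclear m6A writer.

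The RNA-seq libraries held 18504094 to 22592406 counts and the Ribo-seq libraries 10973699 to 35853227 counts. The 3 *M*-cKO Ribo-seq libraries (13764136 to 21725348) were all shallower than the 3 Ctrl libraries (30081796 to 35853227). Fto RNA was 10.8, 11.2 and 8.37 FPKM (fragments scaled to gene length and library size) in Ctrl and 3.26, 7.56 and 2.43 in *F*-cKO, and in Ribo-seq it was at 25.9, 22.0 and 17.6 RPKM (the same for reads) in Ctrl and 3.91, 2.11 and 4.04 in *F*-cKO. Mettl3 went against its label in RNA-seq, at 5.84, 6.43 and 5.07 FPKM in Ctrl and 8.61, 7.82 and 8.34 in *M*-cKO, but was lower in Ribo-seq, at 9.16, 9.25 and 9.93 against 6.78, 6.02 and 6.40 RPKM. The values sum all exons, including those outside the deleted part, and *M*-cKO stands below for the libraries labelled so. The 7 cortical markers reported here (Emx1, Neurod6, Tbr1, Pax6, Sox2, Eomes and Neurod2) were above 0 in every library. The study calls the RNA-seq samples biological replicates and, for both assays, independent samples, but whether each came from a separate animal or litter is not clearly stated, and the Ribo-seq methods can be read as taking cortices from a single litter. The p-values therefore measure the spread between libraries only.

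In Ctrl RNA-seq the levels per length differed widely between the genes (the plot of FPKM along the genome). mt-Co1, the catalytic subunit of cytochrome c oxidase (complex IV), was the highest at 4977 ± 438 FPKM (mean ± SD, n = 3). It was followed by mt-Cytb, the cytochrome b of complex III, at 3929 ± 511, and by mt-Nd1, a complex I subunit, at 2446 ± 268. mt-Nd2 (1243 ± 133) and mt-Nd4 (1102 ± 200), both complex I subunits of the proton-pumping arm, came next, and their ranges overlapped. Below them stood mt-Nd5 (610 ± 90.7) and mt-Nd6 (445 ± 70.4), the latter being the only protein gene on the light strand. The small and large mitochondrial rRNAs, mt-Rnr1 (358 ± 47.3) and mt-Rnr2 (325 ± 65.3), overlapped with each other, and mt-Rnr1 overlapped with mt-Nd6.

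The 6 neighbouring protein genes from mt-Co2 to mt-Nd4l (MT, 7013 to 10173) were lower than the other 7 in every library. Their Ctrl means were 137 ± 7.17 FPKM for mt-Co2 and 78.0 ± 15.8 for mt-Co3, both complex IV subunits. For the complex I subunits mt-Nd3 and mt-Nd4l they were 62.5 ± 6.43 and 48.6 ± 9.59, and for mt-Atp6 and mt-Atp8, subunits of the ATP synthase, 61.1 ± 14.4 and 14.6 ± 5.85. mt-Co3, mt-Nd3, mt-Atp6 and mt-Nd4l each overlapped with the next in this order. The highest of the 6 reached 41.8 to 186 FPKM per library, against 249 to 610 for the lowest of the other 7. Together the 6 held 1.05 to 2.95% of the summed FPKM of the 13 protein genes. The count table also lists 7 nuclear genes that are copies of mitochondrial sequence (Gm28437, Gm28438, Gm28439, Gm28661, Gm29216, Gm10222 and Gm10925), with 30 to 1193 RNA-seq counts per library. RefSeq gives mt-Atp6 as a synonym of Gm10925. How reads were split between near-identical copies was not stated for the RNA-seq counts, so the levels of these 6 genes are uncertain.

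**Figure D1:**
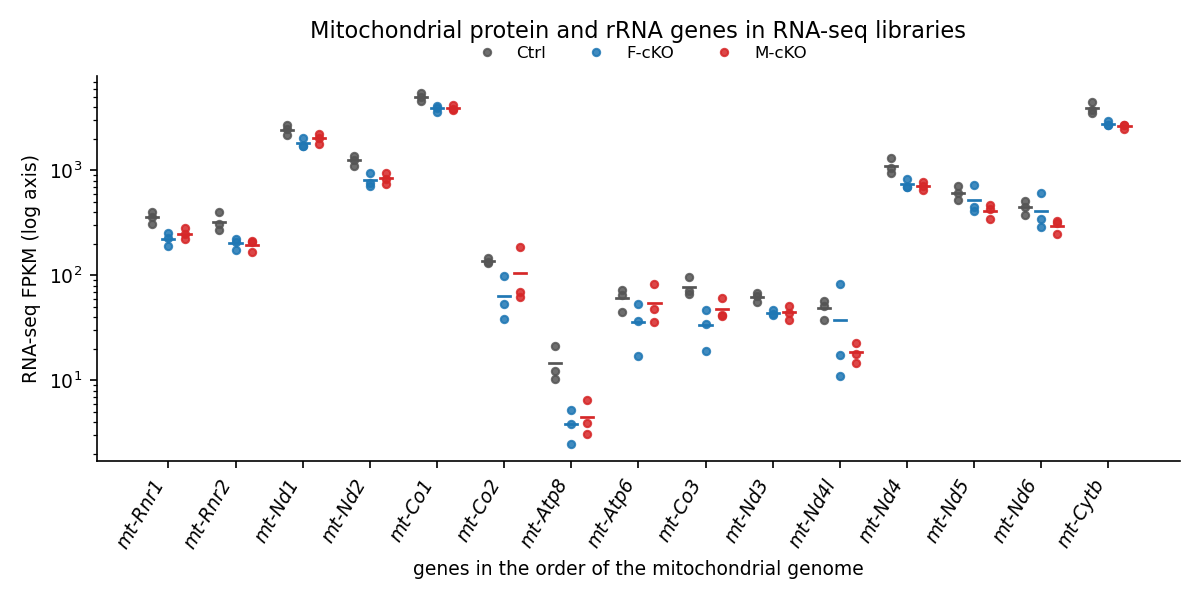
RNA-seq FPKM (log axis) of the 13 protein genes and 2 rRNA genes in the order of the mitochondrial genome. Points are single libraries (3 per group), short lines are group means. The genes from mt-Co2 to mt-Nd4l form a low stretch in all groups, and Ctrl points stand above both knockouts for mt-Rnr1, mt-Rnr2, mt-Nd2, mt-Co1, mt-Atp8, mt-Co3, mt-Nd3, mt-Nd4 and mt-Cytb.

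Of the 22 tRNA genes, 19 had a count in at least 1 RNA-seq library, and mt-Tf, mt-Ts1 and mt-Td were at 0 in all 9. The 5 with the highest Ctrl means were mt-Tp (406 ± 27.8 FPKM), mt-Tl2 (164 ± 17.0), mt-Tc (71.4 ± 10.5), mt-Tn (63.5 ± 14.8) and mt-Tl1 (37.8 ± 16.3), which stand for the tRNAs of proline, leucine, cysteine, asparagine and again leucine. From mt-Tc down, each overlapped with the next. Mature tRNAs are mostly shorter than the fragments of this library type, and whether reads came from tRNAs or from precursors was not tested.

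The first question was whether mitochondrial transcripts changed when Fto was deleted. They were lower: 12 of the 25 genes that passed the count filter fell in *F*-cKO compared to Ctrl and none rose (quasi-likelihood test of edgeR, p under 0.05 after Benjamini-Hochberg adjustment over all genes tested). Over all 16944 genes tested, 9.57% were called lower and 11.5% higher. The 12 called were 9 of 13 protein genes, both rRNA genes and mt-Tl2, and the genes under the filter were all tRNA genes. The median log2 fold change over the 25 genes was -0.45, against -0.01 over all genes. In a bulk sample, less mitochondrial RNA per cell and fewer cells rich in mitochondria cannot be told apart.

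mt-Cytb was at 3784, 3506 and 4497 FPKM in Ctrl and 2688, 2689 and 2954 in *F*-cKO, a log2 fold change of -0.51 ± 0.09 (SE, adjusted p = 0.00690). mt-Nd2 was at 1249, 1107 and 1372 against 715, 758 and 949.5 FPKM, a log2 fold change of -0.63 ± 0.11 (adjusted p = 0.00652). For both genes all 3 *F*-cKO libraries lay below all 3 Ctrl libraries. The rRNAs, which form the core of the mitochondrial ribosome, fell alike: mt-Rnr1 from 361, 309 and 404 to 189, 228 and 252 FPKM (-0.69 ± 0.12, adjusted p = 0.00536), and mt-Rnr2 by 0.70 ± 0.14 on the log2 scale (adjusted p = 0.00913). mt-Co1 was lower by a smaller step, at 4968, 4543 and 5419 against 3916, 3625 and 4131 FPKM (-0.37 ± 0.08, adjusted p = 0.0138).

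Of the 6 genes of the low stretch, 4 were called lower in *F*-cKO, with log2 fold changes from -1.93 for mt-Atp8 to -0.52 (± 0.10) for mt-Nd3. mt-Atp8 fell from 10.3, 21.3 and 12.3 to 3.81, 5.27 and 2.50 FPKM (-1.93 ± 0.37, adjusted p = 0.00812), on 11 to 92 counts per library in these groups. mt-Co2 went from 134, 132 and 145 to 99.5, 53.3 and 38.4 FPKM (-1.12 ± 0.26), and mt-Co3 changed by -1.23 ± 0.26. The copies in the nuclear genome moved the same way, with 6 of 7 called lower in *F*-cKO (9.57% of all genes) and all 7 in *M*-cKO (14.1% of all genes). Outside the low stretch, mt-Nd1 (-0.43 ± 0.10) and mt-Nd4 (-0.59 ± 0.12) were also called lower in *F*-cKO.

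The 4 protein genes not called in *F*-cKO were mt-Nd5 (-0.22, adjusted p = 0.447), mt-Nd6 (-0.12, adjusted p = 0.766), mt-Atp6 (-0.79, adjusted p = 0.109) and mt-Nd4l (-0.41, adjusted p = 0.658; edgeR). With no filter on low counts, mt-Nd5 (adjusted p = 0.0222), mt-Atp6 (3.48e-13) and mt-Nd4l (0.0379) were called lower by edgeR at nearly the same fold changes, where 2110 of all 30597 genes tested were lower. The smallest edgeR adjusted p over all genes was 1.37e-188 in that fit, against 0.00293 with the filter. Its calls were therefore not taken as support. For mt-Nd5 and mt-Nd6, *F*-cKO replicate 3 stood apart from its group. mt-Nd5 was at 605, 521 and 702 FPKM in Ctrl and at 406, 452 and 722 in *F*-cKO, and mt-Nd6 at 450, 372 and 513 against 286, 343 and 610. Without *F*-cKO replicate 3, both were called lower, at -0.52 (adjusted p = 0.0124) and -0.51 (adjusted p = 0.0206) by edgeR, and so was mt-Tp (-0.40). The same library was the highest of all 9 for mt-Tc and mt-Tn, at 124 and 95.9 FPKM. For mt-Nd4l it was *F*-cKO replicate 2 that stood apart, at 83.1 FPKM against 17.3 and 11.1 in its group; without it mt-Nd4l (-1.79) and mt-Atp6 (-1.19) were called lower, whereas mt-Co1, mt-Nd1 and mt-Co2 missed the threshold (adjusted p = 0.0621 to 0.0697). Without Ctrl replicate 3, the same 3 genes missed it (adjusted p = 0.0535 to 0.0586), and without Ctrl replicate 1 mt-Nd1 did (adjusted p = 0.0511).

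The second question was the same for Mettl3. In *M*-cKO compared to Ctrl, 15 of 24 mitochondrial genes tested were lower and none rose, where 14.1% of all 16968 genes tested were called lower and 15.5% higher. The 15 were 11 of 13 protein genes, both rRNA genes, mt-Tp and mt-Tn. The median log2 fold change over the 24 was -0.52, against -0.01 over all genes. mt-Co2 (-0.39, adjusted p = 0.399) and mt-Atp6 (-0.16, adjusted p = 0.682) were the protein genes not called by edgeR. Since both knockouts were compared to the same 3 Ctrl libraries, the lists of called genes are not independent of each other.

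mt-Cytb was at 2721, 2682 and 2451 FPKM in *M*-cKO, all below Ctrl (-0.59 ± 0.09, adjusted p = 0.000533). mt-Nd4, of complex I, was at 1048, 935 and 1323 FPKM in Ctrl and 710, 767 and 647 in *M*-cKO (-0.65 ± 0.11, adjusted p = 0.00157). mt-Nd5 was at 426, 467 and 348 FPKM (-0.57 ± 0.12, adjusted p = 0.00438). These 3 genes showed no overlap between *M*-cKO and Ctrl libraries. mt-Nd6 (-0.59 ± 0.12), mt-Nd2 (-0.57 ± 0.10), mt-Co1 (-0.35 ± 0.07), mt-Nd3 (-0.50 ± 0.13) and mt-Co3 (-0.72 ± 0.16) were called as well, as were mt-Rnr1 (-0.53 ± 0.11) and mt-Rnr2 (-0.74 ± 0.13). The steps were largest for mt-Atp8 (-1.71 ± 0.35) and mt-Nd4l, which went from 56.5, 51.4 and 38.0 to 22.8, 18 and 14.6 FPKM (-1.40 ± 0.19, adjusted p = 0.000339).

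mt-Nd1 changed least among the called protein genes (-0.29 ± 0.09, adjusted p = 0.0316). Its *M*-cKO libraries stood at 2043, 2198 and 1800 FPKM and overlapped with Ctrl at 2459, 2172 and 2707. The call was lost when *M*-cKO replicate 1 or 3 or Ctrl replicate 1 or 3 was left out (adjusted p = 0.0710 to 0.133), and also with the replicate number as a block (adjusted p = 0.0634). Among the tRNA genes, mt-Tp (-0.31 ± 0.09, adjusted p = 0.0206) lost its call without *M*-cKO replicate 1, *M*-cKO replicate 3 or Ctrl replicate 1, and mt-Tn (-0.74 ± 0.22, adjusted p = 0.0238) without *M*-cKO replicate 3 or Ctrl replicate 3; adjusted p was then 0.0587 to 0.108. mt-Nd3 lost its call without Ctrl replicate 1 (adjusted p = 0.0548). *M*-cKO replicate 2 held mt-Co2 at 186 FPKM, against 68.8 and 62.3 in its group, and without it mt-Co2 was called lower (-1.07, adjusted p = 0.000266). Without *M*-cKO replicate 2 mt-Tl2 was also called lower (-0.54), and without replicate 1 mt-Atp6 (-0.56).

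By ranges alone, 15 of 25 mitochondrial genes had *F*-cKO values entirely below Ctrl, against 19.6% of all genes. In *M*-cKO it was 16 of 24, against 21.5%. Between *M*-cKO and *F*-cKO no mitochondrial gene was called of 24 tested, where 13.1% of all genes were higher and 14.3% lower, and for none did the ranges separate, against 21.7% and 21.8% of all genes. Neither did DESeq2 call any, and mt-Tn alone had an unadjusted p under 0.05 (0.0415 by edgeR). The differences ranged from -1.01 ± 0.59 for mt-Nd4l to 0.72 ± 0.41 for mt-Co2. Without *F*-cKO replicate 1, 6 genes were called, of which mt-Co2 and mt-Co3 were higher and mt-Nd5, mt-Nd6, mt-Tc and mt-Tn lower in *M*-cKO, along with 2342 higher and 2224 lower of all 17295 genes tested. Without *F*-cKO replicate 3, mt-Nd1 (0.24) and mt-Nd4l (-1.44) were called, along with 2000 higher and 1840 lower of 17152 genes. With no filter on low counts the number was 7, of which mt-Co2, mt-Co3 and mt-Atp6 were higher and mt-Nd5, mt-Nd6, mt-Nd4l and mt-Tn lower, along with 2801 higher and 2471 lower of 30412 genes. For mt-Co2 the edgeR adjusted p was then 1.72e-16, against 0.215 with the filter, at log2 fold changes of 0.74 and 0.72. These 7 calls were therefore not taken as support.

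Summed over the 13 protein genes, mitochondrial reads took 1.89, 1.73 and 2.14% of counts in Ctrl, 1.32, 1.32 and 1.58% in *F*-cKO and 1.40, 1.52 and 1.29% in *M*-cKO. Both knockouts lay below Ctrl in every library, by 0.51 and 0.52 percentage points on average, and they overlapped with each other. With 3 libraries against 3, a two-sided exact permutation test cannot go below p = 0.1, and no other test was run on such sums. The rRNA share went from a mean of 0.0870% to 0.0533% (*F*-cKO) and 0.0554% (*M*-cKO), again with no overlap. The tRNA share went from 0.00587% to 0.00464% and 0.00455%, with overlap for *F*-cKO. Scaling the libraries without the mitochondrial genes left the counts of called genes at 12 and 15.

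The make-up of the mitochondrial RNA was taken as the share of each gene in the summed FPKM of the 13 protein genes. In *F*-cKO the shares of mt-Nd2, mt-Nd4 and mt-Atp8 lay below Ctrl in all libraries, at 7.19, 6.60 and 0.035% against 8.21, 7.24 and 0.0995%. In *M*-cKO 7 of 13 shares did not overlap with Ctrl. By FPKM itself, 23.3% of all genes tested lay above Ctrl in all *M*-cKO libraries and 21.5% below (22% and 19.6% in *F*-cKO). The 13 shares of a library add up to a fixed total and thus depend on each other. mt-Nd1 had 18.1% against 16.1% in Ctrl and mt-Co1 35.4% against 32.9%, while mt-Nd2, mt-Nd4, mt-Nd4l, mt-Atp8 and mt-Cytb had lower shares. The mt-Cytb share was 25.9% in Ctrl and 23.7% in *M*-cKO. Between the knockouts, the share of mt-Nd1 was higher and that of mt-Nd4 lower in all *M*-cKO libraries, and the others overlapped. For *F*-cKO the number of shares apart from Ctrl was 7 without *F*-cKO replicate 1 and 5 without *F*-cKO replicate 2. Leaving out a library cannot lower this number, so its rise says little.

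Marker sums of other cell types were taken beside these results. In *F*-cKO, endothelial markers (5 genes) summed to 34.6 to 39.9 FPKM, against 46.8 to 50.7 in Ctrl (*M*-cKO 38.2 to 53.9), although only 1 of the 5, Cldn5 (-0.63), was called lower and 3 had a log2 fold change above 0. The sum of 5 meningeal markers was also lower there (2.35 to 8.98 against 10.5 to 20.3), with 2 of the 5 called lower. Ganglionic eminence markers (5 genes) were higher in *M*-cKO, at 110 to 148 against 78.4 to 80.1 FPKM in Ctrl. The summed FPKM of the 7 cortical markers was lowest in Ctrl (693 to 751), followed by *F*-cKO (819 to 878) and *M*-cKO (952 to 965). Sums of erythroid (9 genes), microglial (5), skeletal muscle (4) and liver and pancreas markers (6, with Prss2 at 0) overlapped between each knockout and Ctrl in RNA-seq. Within the erythroid list, the embryonic globin Hbb-y was called higher in *F*-cKO (4.90) and *M*-cKO (3.26) and the adult globin Hbb-bs lower in *F*-cKO (-0.71). All the other markers but Prss2 were detected in some library. The part of these differences in the mitochondrial values was not tested.

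Ribo-seq held very few fragments of mitochondrial genes. Complete count rows were present for 8 of the 37 genes (mt-Nd1, mt-Nd2, mt-Co1, mt-Atp8, mt-Nd4, mt-Nd5, mt-Nd6 and mt-Cytb) and blank for 29, of which 23 are listed at an RPKM of 0 in all 9 libraries, among them mt-Rnr1, mt-Rnr2, mt-Co2, mt-Atp6 and mt-Nd4l. The 8 genes summed to 957 to 3259 counts per library. That was 0.00268, 0.00371 and 0.00561% of counts in Ctrl, 0.00611, 0.0243 and 0.00364% in *F*-cKO and 0.00728, 0.0237 and 0.00441% in *M*-cKO. The groups overlapped, and replicate 2 of each knockout stood far above the rest. Those same 2 libraries were the shallowest, at 10973699 and 13764136 counts. *F*-cKO replicate 2 also held endothelial markers at a sum of 83.3 RPKM, against 4.09 to 8.38 in the other libraries. It was highest for the meningeal (43.1 against 1.70 to 23.2 RPKM) and microglial sums (21.3 against 9.02 to 17.8). For the cortical markers it was lowest (578 against 751 to 971). In Ribo-seq the ganglionic eminence markers were again higher in *M*-cKO (51.2 to 106 against 31.7 to 46.6 RPKM in Ctrl), as was the summed RPKM of the 4 skeletal muscle markers (6.43 to 10.5 against 4.46 to 5.33), of which 2 passed the count filter and 1, Tnnt3 (2.04), was called. The part of depth and of these markers in the mitochondrial values was not tested, and neither was whether the fragments came from mitochondrial ribosomes.

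**Figure D2:**
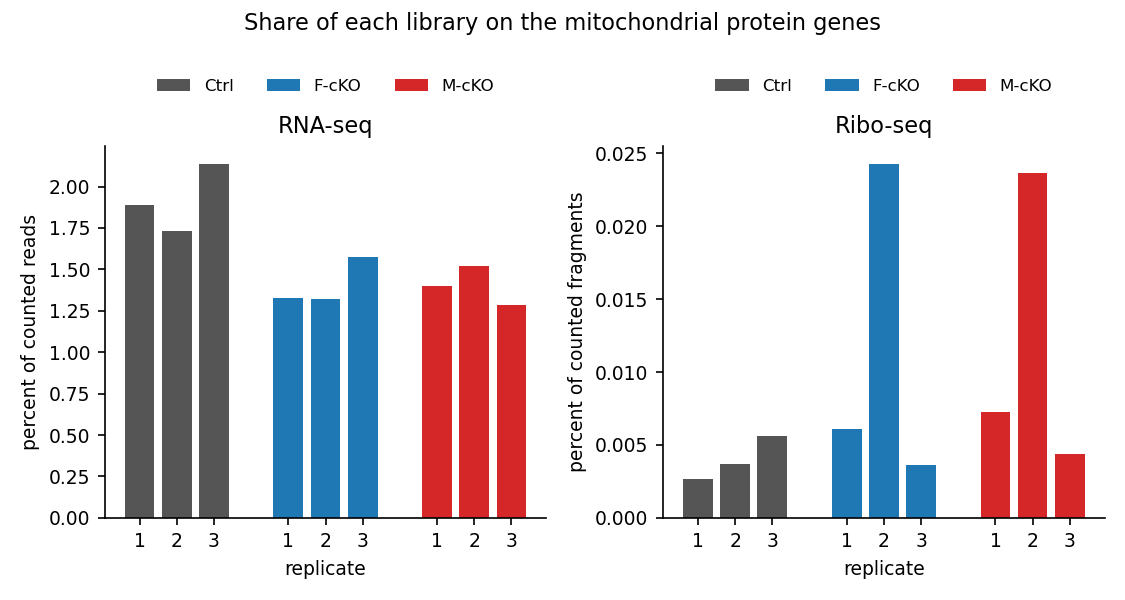
Percent of all counts on the mitochondrial protein genes in each library, for RNA-seq (13 genes) and Ribo-seq (8 genes with counts), bars being single libraries. RNA-seq shares lie between 1.73 and 2.14% for Ctrl and between 1.29 and 1.58% for the knockouts, while Ribo-seq shares lie between 0.00268 and 0.00728% except for replicate 2 of *F*-cKO (0.0243%) and *M*-cKO (0.0237%).

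Set against the RNA level, the Ribo-seq level of mitochondrial genes was low. The ratio of mean RPKM to mean FPKM, called translation efficiency (TE) below, was 0.00138 to 0.00254 in Ctrl for mt-Nd4, mt-Nd1, mt-Nd2, mt-Cytb and mt-Co1. It was 0.00658 for mt-Nd5, 0.0182 for mt-Nd3, 0.0219 for mt-Nd6 and 0.384 for mt-Atp8. mt-Nd3 and mt-Atp8 lie in the low stretch, whose RNA levels are uncertain. The mt-Atp8 ratio rests on 5.61 RPKM over 14.6 FPKM. The median was 0.859 over 11739 genes and 1.57 over 75 nuclear genes of the respiratory chain. The ratio compares values of different library types and sets genes of the same table side by side only.

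In *M*-cKO compared to Ctrl, 2 of the 8 genes tested rose in Ribo-seq, mt-Nd4 and mt-Nd5, both complex I subunits, where 7.13% of all 14314 genes were called higher and 7.5% lower. mt-Nd5 (MT, 11742 to 13565) had 142, 245 and 187 counts in Ctrl and 626, 1290 and 307 in *M*-cKO. That was 2.62, 5.33 and 4.09 against 20.8, 58.2 and 8.91 RPKM, a log2 fold change of 2.91 ± 0.67 (edgeR, adjusted p = 0.0315). mt-Nd4 (MT, 10167 to 11544) had 56, 74 and 37 counts in Ctrl and 180, 446 and 105 in *M*-cKO, or 1.37, 2.13 and 1.07 against 7.93, 26.6 and 4.04 RPKM (3.12 ± 0.71, adjusted p = 0.0311). Both genes were higher in all 3 *M*-cKO libraries, the only 2 of the 8 with ranges apart from Ctrl, against 17.6% of all genes higher and 20.4% lower. Replicate 2 was the highest and replicate 3 the lowest *M*-cKO library for both.

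The other 6 genes were not called. mt-Nd1 was at 2.00 ± 0.66 (adjusted p = 0.0787), mt-Nd2 at 1.11 ± 0.56, mt-Cytb at 0.97 ± 0.58, mt-Nd6 at 0.75 ± 0.72 and mt-Co1 at 0.28 ± 0.54. mt-Atp8, with 18, 20 and 51 counts in Ctrl and 4, 14 and 3 in *M*-cKO, was at -1.22 ± 0.80 (edgeR adjusted p = 0.319).

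The calls of mt-Nd4 and mt-Nd5 were not firm. They were lost without *M*-cKO replicate 1 (adjusted p = 0.0506 and 0.0557), without any of the 3 Ctrl libraries (0.0935 to 0.106), in a fit of all 3 groups together (0.164 and 0.192), and in the limma test on RPKM (0.0762 and 0.0828). Without *M*-cKO replicate 2 they remained, at 1.97 and 1.89. Where the calls were lost, the log2 fold changes stayed large. They were 3.39 and 3.13 without *M*-cKO replicate 1, 2.68 to 3.43 without a Ctrl library, and 3.14 and 2.93 in the fit of all 3 groups.

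In *F*-cKO compared to Ctrl no mitochondrial gene of the 8 was called in Ribo-seq by edgeR or DESeq2. Neither was any of the 14335 genes tested by edgeR (0% in each direction, 227 higher and 91 lower at an unadjusted p under 0.05). DESeq2 called 5 genes higher and 1 lower after adjustment. The edgeR fit thus missed Fto itself, at 25.9, 22.0 and 17.6 RPKM in Ctrl and 3.91, 2.11 and 4.04 in *F*-cKO. Its lack of mitochondrial calls therefore does not show that their levels were unchanged. mt-Nd5 had 421, 1024 and 228 counts in *F*-cKO and was at 14.5, 55.7 and 4.54 RPKM (2.76 ± 0.93, unadjusted p = 0.0229, adjusted p = 0.730). mt-Nd4 had 98, 224 and 73 counts and was at 4.48, 16.1 and 1.93 RPKM (2.41 ± 0.85, unadjusted p = 0.0268). Both overlapped with Ctrl, and no mitochondrial gene had ranges apart, against 3.03% of all genes higher and 4.13% lower. The other 6 ranged from -0.49 for mt-Atp8 to 1.64 for mt-Nd1. The effects of the 2 knockouts were compared directly, and *M*-cKO differed from *F*-cKO by 0.72 ± 0.99 for mt-Nd4 and by 0.16 ± 1.03 for mt-Nd5. The direction rested on single libraries: without *M*-cKO replicate 2 the differences were -0.44 and -0.87, and without *F*-cKO replicate 2 they were 2.11 and 1.72. With the replicate number as a block, since same-numbered libraries of these groups deviated together, the differences were 0.85 and 0.50 (edgeR adjusted p = 0.620 and 0.638). Within the 3 same-numbered pairs, a pairing that no label states, the RPKM of mt-Nd4, mt-Nd5, mt-Nd1 and mt-Nd2 was higher and that of mt-Nd6 and mt-Cytb lower in *M*-cKO each time. Neither edgeR fit called any gene in either direction, Fto included (0%, and without the block 710 higher and 444 lower at an unadjusted p under 0.05). DESeq2 called 173 genes higher and 27 lower after adjustment, none of them mitochondrial. None of the 8 had ranges apart, against 8.05% of all genes higher and 5.64% lower.

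**Figure D3:**
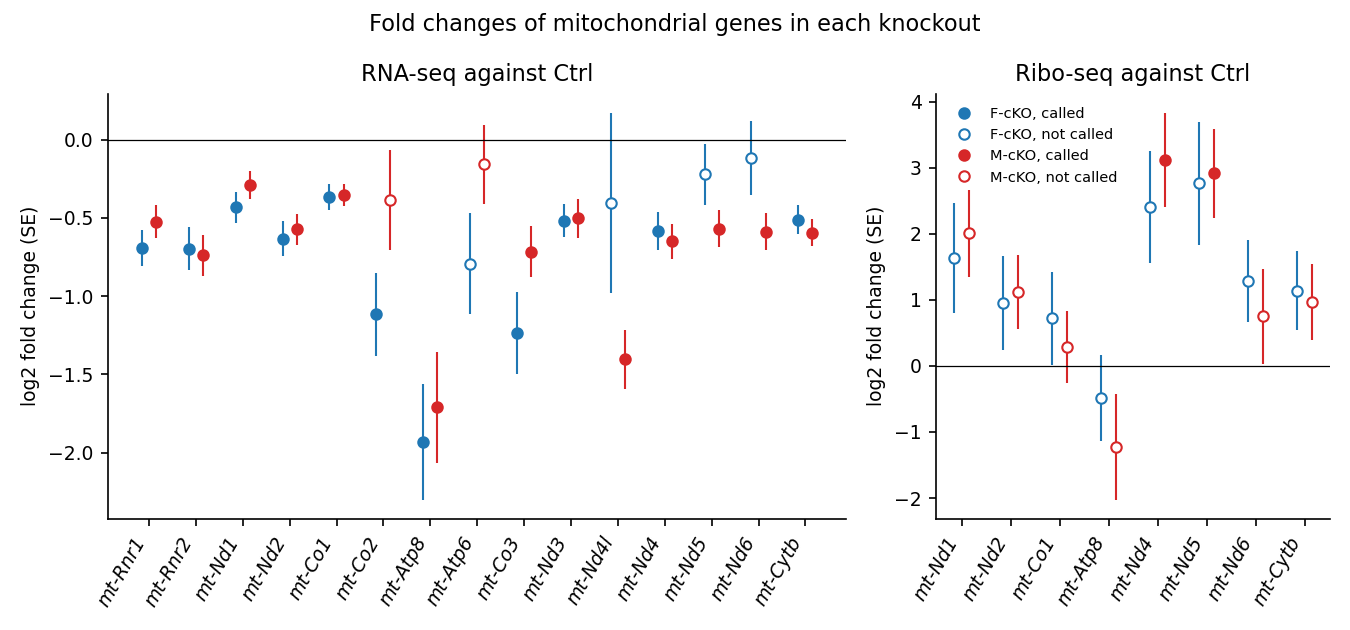
Log2 fold changes against Ctrl with standard errors, in RNA-seq for the 15 protein and rRNA genes and in Ribo-seq for the 8 genes with counts. Filled points were called by edgeR (adjusted p under 0.05), and open points were not. RNA-seq values lie below 0 for both knockouts, and Ribo-seq values lie above 0 except for mt-Atp8.

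The change in TE was tested as the difference between the Ribo-seq and RNA-seq effects over 12 libraries. In *M*-cKO, mt-Nd4 (3.75 ± 0.70, adjusted p = 0.0170) and mt-Nd5 (3.51 ± 0.68, adjusted p = 0.0186) rose, where 1.65% of 13208 genes were called higher and 1.41% lower (edgeR). All 8 genes had a positive difference, with mt-Nd1 (2.28, adjusted p = 0.0633), mt-Nd2 (1.65, adjusted p = 0.0786) and mt-Cytb (1.56, adjusted p = 0.131) not called. Part of each difference is the lower RNA level, which was -0.65 for mt-Nd4 and -0.57 for mt-Nd5. Both calls were lost without the RNA-seq library *M*-cKO replicate 1 or Ctrl replicate 3 (adjusted p = 0.0527 to 0.0571), and in a fit of all 3 groups (0.197 and 0.268). The mt-Nd5 call was also lost without RNA-seq *M*-cKO replicate 3 or Ribo-seq Ctrl replicate 2 (0.0534 and 0.0502), and without Ribo-seq *M*-cKO replicate 3 the number called was 6 of 8, along with 627 higher and 482 lower of all 13229 genes tested (218 and 186 with all libraries).

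In *F*-cKO, all 8 genes again had a positive TE difference, from 1.08 for mt-Co1 to 2.98 for mt-Nd5, and none was called (edgeR adjusted p = 0.585 to 0.615). Over all 13225 genes edgeR called 0%, Fto included, with 577 higher and 513 lower at an unadjusted p under 0.05. DESeq2 called 11 genes higher and 54 lower after adjustment, none of them mitochondrial. As a level, the TE of mt-Nd4 was 7.35 times that of Ctrl in *F*-cKO and 13.2 times in *M*-cKO, and that of mt-Nd5 7.19 and 10.8 times. These folds rested largely on replicate 2 of each knockout. Without its Ribo-seq library they were 3.13 and 6.12 for mt-Nd4 and 2.75 and 5.46 for mt-Nd5. Of the 9 protein genes with a Ribo-seq value above 0 in every group, 8 had a higher TE level in each knockout, and mt-Nd3 a lower one (0.71 and 0.75 times Ctrl). The direction of mt-Nd3 rested on Ctrl replicate 3, without whose Ribo-seq library it was 3.03 and 3.18 times Ctrl, and in *M*-cKO also on replicate 3 (1.13 without it). Without the Ribo-seq library *M*-cKO replicate 2 the number of genes with a higher TE in *M*-cKO was 5. *M*-cKO and *F*-cKO did not differ by a call in TE by edgeR (0%, with 234 higher and 265 lower at an unadjusted p under 0.05). DESeq2 called 20 genes higher and 4 lower after adjustment, none of them mitochondrial.

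The make-up of the Ribo-seq signal was taken within each library, as the share of each gene in the mitochondrial total (the plot of shares by gene). Replicate 2 of *M*-cKO did not stand apart in these shares for mt-Nd4 and mt-Nd5. mt-Nd5 took 8.35, 13 and 5.81% of the summed RPKM of the 13 protein genes in Ctrl, 21.3, 26.0 and 11.3% in *F*-cKO and 29.2, 27.0 and 23.0% in *M*-cKO. mt-Nd4 took 4.36, 5.20 and 1.52%, then 6.55, 7.53 and 4.78%, then 11.1, 12.4 and 10.4%. For both, *M*-cKO lay above Ctrl in all libraries, and *F*-cKO overlapped with Ctrl. No test was run on these shares, which add up to a fixed total in each library. By RPKM itself, 17.6% of all genes tested lay above Ctrl in all *M*-cKO libraries and 20.4% below. mt-Nd1 was also higher in *M*-cKO, with a mean of 12.3% against 7.64%. Compared to *F*-cKO, the *M*-cKO shares of mt-Nd4 and mt-Nd1 were higher and that of mt-Nd6 lower in all libraries, and the others overlapped.

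Against these, the *M*-cKO shares of mt-Atp8, mt-Nd6 and mt-Cytb were below Ctrl in all libraries. mt-Atp8 took 9.46, 9.49 and 14.2% in Ctrl and 1.67, 2.62 and 2.01% in *M*-cKO, and in *F*-cKO it was lower too, at 6.77, 2.50 and 4.87%. mt-Nd6 took 24.4, 21.8 and 17.9% in Ctrl and 11.6, 16.4 and 11.05% in *M*-cKO, while the *F*-cKO values (20.2, 19.6 and 26.3%) overlapped with Ctrl. mt-Cytb went from a mean of 16.3 to 13.6%. The mt-Co1 share, the largest in Ctrl at a mean of 25.1%, overlapped in all groups. As a share of counts not divided by gene length, it was lower in all *M*-cKO libraries (14.9 to 28.2%) than in Ctrl (32.0 to 47.9%). In *F*-cKO the shares of mt-Atp8 and mt-Nd2 were apart from Ctrl, which made 2 genes, against 5 without *F*-cKO replicate 3 and 4 without Ctrl replicate 2. Leaving out a library cannot lower this number. By RPKM itself, 3.03% of all genes tested lay above Ctrl in all *F*-cKO libraries and 4.13% below. mt-Nd5 and mt-Nd6 overlap on opposite strands for 14 bases, and mt-Atp8 overlaps with mt-Atp6, so their counts depend on how such reads were assigned.

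**Figure D4:**
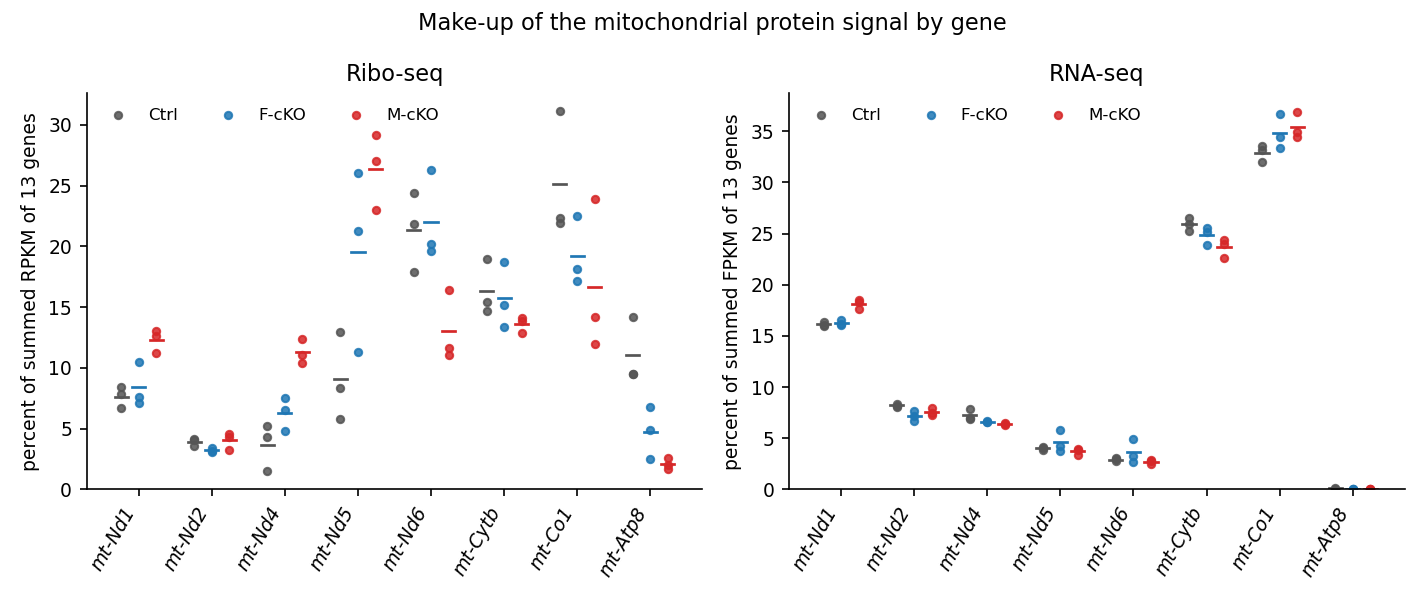
Share of each of the 8 genes in the summed RPKM (Ribo-seq, left) or FPKM (RNA-seq, right) of the 13 protein genes, with points for single libraries and lines for group means. In Ribo-seq, mt-Nd4 and mt-Nd5 are higher and mt-Atp8 and mt-Nd6 lower in all *M*-cKO libraries than in Ctrl, while in RNA-seq the shares of mt-Nd5 and mt-Nd6 overlap between *M*-cKO and Ctrl.

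For 6 genes with blank counts, the RPKM values correspond to whole fragments. mt-Tf, the tRNA of phenylalanine next to the control region, had 2, 18 and 4 fragments in Ctrl, 1, 124 and 3 in *F*-cKO and 7, 44 and 4 in *M*-cKO, with replicate 2 the highest in each group. It was at 0 in every RNA-seq library. mt-Nd3 had 2, 3 and 25 fragments in Ctrl, 4, 2 and 4 in *F*-cKO and 5, 4 and 0 in *M*-cKO, and its level did not pass the limma test on log2(RPKM + 0.1), at -0.14 and -0.64 (adjusted p = 0.974 and 0.776). mt-Tn, mt-Tp, mt-Tc and mt-Co3 had 0 to 8 fragments per library. No gene of this set was called, against 2.4% called higher and 1.38% called lower over 21075 genes for *M*-cKO, 0% of 20384 for *F*-cKO (312 and 233 at an unadjusted p under 0.05), and between the knockouts 0%.

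The nuclear partners of these genes were taken as lists of genes by function. Of 75 nuclear genes of the respiratory chain tested, 33 (44%) fell and none rose in *F*-cKO RNA-seq, where 9.57% of all genes were lower and 11.5% higher. The median log2 fold change was -0.19, against -0.01 over all genes. Atp5e (-0.35), an ATP synthase subunit, and Cox6c (-0.34) and Cox8a (-0.35), subunits of complex IV, had the smallest adjusted p. In *M*-cKO 15 (20%) fell and 3 (4%) rose, against 14.1% and 15.5% of all genes, with a median of -0.09 against -0.01. Cox7b (-0.41), Atp5k (-0.38) and the complex I subunit Ndufv2 (-0.35) were lower, and Uqcrfs1 (0.42), the Rieske protein of complex III, Uqcrq (0.26) and Atp5g2 (0.27) were higher. Between *M*-cKO and *F*-cKO, 15 (20%) were higher and 5 (6.67%) lower, against 13.1% and 14.3% of all genes, with Uqcrfs1 (0.51), Cox8a (0.51) and Uqcrq (0.44) leading the first and Ndufv2 (-0.26), Sdha (-0.28) and Uqcrc2 (-0.25) the second.

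The nuclear respiratory chain genes took between 0.870 and 0.884% of RNA-seq counts in Ctrl libraries. *F*-cKO lay below this (0.772 to 0.787%), and *M*-cKO overlapped with it (0.817 to 0.893%). The log2 ratio of mitochondrial to nuclear respiratory chain counts was 1.12, 0.97 and 1.29 in Ctrl. It was 0.75, 0.76 and 1.03 in *F*-cKO, which overlapped with Ctrl, and 0.78, 0.88 and 0.53 in *M*-cKO, which lay below it. In Ribo-seq the same ratio was -9.09, -8.61 and -7.93 in Ctrl, -7.84, -5.35 and -8.66 in *F*-cKO and -7.37, -5.60 and -8.25 in *M*-cKO, and the groups overlapped.

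In *M*-cKO Ribo-seq, 11 of 76 nuclear respiratory chain genes (14.5%) fell and 4 (5.26%) rose, against 7.5% and 7.13% of all genes. Ndufs5 (-1.07), Ndufv1 (-0.70) and Uqcrc2 (-0.56) were lower, and Atp5g2 (1.04), Uqcr11 (0.55) and Ndufa13 (0.41) were higher. In TE, where 1.65% of all genes were higher and 1.41% lower, Atp5g2 (0.83) and Ndufa13 (0.64) rose, and Atp5g1 (-0.85) and Ndufs5 (-0.84) fell. None was called in *F*-cKO Ribo-seq or TE, or between the knockouts in either.

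Of 19 genes for the upkeep and transcription of mitochondrial DNA, 1 (5.26%) rose and none fell in *F*-cKO RNA-seq, against 11.5% and 9.57% of all genes. It was Lig3 (0.42), the mitochondrial DNA ligase. In *M*-cKO 3 rose, which were Twnk (0.69), the replicative helicase, Mterf4 (0.51) and Lig3 (0.25), and Mterf1b fell (-0.80). These were 15.8% and 5.26% of the list, near and under the 15.5% and 14.1% of all genes. Twnk fell in TE (-0.61). It overlaps with Mrpl43, and whether the RNA-seq counts used strand was not stated. Mterf4 also rose in *M*-cKO Ribo-seq (0.87). Between the knockouts in RNA-seq, 2 (10.5%) were higher and 3 (15.8%) lower in *M*-cKO, against 13.1% and 14.3% of all genes: Mterf4 (0.60) and Twnk (0.58), against Mterf1b (-0.76), Mterf3 (-0.42) and Ssbp1 (-0.28), the mitochondrial single-strand DNA-binding protein.

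Of 26 genes tested for processing and stability of mitochondrial RNA, 1 rose in *F*-cKO, Grsf1 (0.26), an RNA-binding protein of mitochondrial RNA granules, which is 3.85% against 11.5% of all genes. In *M*-cKO 4 (15.4%) rose and 2 (7.69%) fell, which is near or under the 15.5% and 14.1% of all genes. Trmt10c (0.46), a subunit of the RNase P that cuts tRNA 5′ ends, and the rRNA methyltransferases Mrm3 (0.49) and Mrm2 (0.42) rose, and Trit1 (-0.33) and Fastkd5 (-0.54) fell. In *M*-cKO Ribo-seq Mrm3 (0.78), Mrm2 (0.61) and Pde12 (0.49) rose and Trnt1 (-0.61), which adds the CCA end to tRNAs, fell. That was 11.1% and 3.7% of 27 genes, against 7.13% and 7.5% of all genes. Trmt10c fell in TE (-0.63). Between the knockouts Mrm2 (0.53), Mrm3 (0.51) and 1110008L16Rik (0.42) were higher in *M*-cKO RNA-seq, 11.5% of the list against 13.1% of all genes.

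Of 14 genes of mitochondrial translation, none was called in *F*-cKO RNA-seq, against 11.5% of all genes higher and 9.57% lower. In *M*-cKO 4 (28.6%) rose and 1 (7.14%) fell, against 15.5% and 14.1% of all genes: the elongation factor Tsfm (0.46), Taco1 (0.44), which activates translation of mt-Co1, and the insertase Oxa1l (0.26) were higher, and Guf1 (-0.44) was lower. In Ribo-seq of *M*-cKO Tsfm (0.59) and Taco1 (0.50) rose and the release factor Mtrf1 (-0.69) fell, which is 2 (15.4%) and 1 (7.69%) of 13 genes against 7.13% and 7.5%. Between the knockouts, Tsfm (0.44) and Oxa1l (0.24) were higher and Guf1 (-0.74) and Mtif2 (-0.27) lower in *M*-cKO RNA-seq, 14.3% each way against 13.1% and 14.3% of all genes.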

How the data were processed

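RNA-seq (total RNA, paired 150-base reads, aligned with HISAT2 2.0.5) and Ribo-seq (cycloheximide, RNase I, rRNA depletion, TopHat2, counted with HTSeq) were made by the study from embryonic day 15.5 cortex and mapped to mm10, and the RNA-seq counting tool and its strand setting are not given in the sources used here. The authors deposited raw counts per gene for both assays, FPKM for RNA-seq and RPKM for Ribo-seq. The deposited Ribo-seq counts were blank in 8 of 9 libraries for 40490 of 54838 genes, so RPKM was used for these. Where RPKM times gene length gave whole fragments (within 0.05), fragment numbers were printed.

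Counts were fitted with edgeR 4.0.16 (R 4.3.3; TMM, filterByExpr with a minimum count of 10, quasi-likelihood test) on the libraries of the 2 groups compared, p-values were adjusted over all genes tested (Benjamini-Hochberg), and genes under 0.05 were called. TE was tested as the interaction of assay and genotype over 12 libraries. RPKM was tested with limma 3.58.1 on log2(RPKM + 0.1). The steps were tested on simulated data. Alternatives were DESeq2 1.42.0, other scaling, no filter, all 3 groups in 1 fit, protein-coding genes only, another pseudocount, a replicate block, libraries left out and, chosen after seeing the data, blank counts filled from RPKM and both knockouts without Ribo-seq replicate 2.

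Replicate numbers came from the sample titles. Deviations from group means of same-numbered libraries correlated at over 0.1 in all 3 pairs for Ribo-seq of *F*-cKO and *M*-cKO (0.156 to 0.267, against -0.213 to 0.0834 between other numbers), and for no other pair of groups. A block on the replicate number was therefore added as an alternative for these. No label or method states that they were paired. Replicate 2 was the shallowest library of both groups, and the part of depth in the correlation was not tested. All protein and rRNA genes were named, tRNA genes if called or among the 5 highest of an assay, and from each list at most 3 genes per comparison and direction by adjusted p. The members and lists were chosen with earlier results of these data known. No sequence of the mitochondrial genome was used here.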

Additional observations from a re-analysis of the deposited data

Results flagged for a closer look

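The effects of Mettl3 deletion in RNA-seq and Ribo-seq differed by the test of that difference itself for 2 genes. For mt-Nd4 the Ribo-seq effect exceeded the RNA-seq effect by 3.75 on the log2 scale, and for mt-Nd5 by 3.51 (edgeR interaction of assay and genotype over 12 libraries, adjusted p = 0.0170 and 0.0186). Over all 13208 genes, 1.65% were called higher and 1.41% lower. In both genes RNA was lower and Ribo-seq counts were higher in all 3 *M*-cKO libraries than in Ctrl. Both calls were lost in a fit of all 3 groups and without RNA-seq *M*-cKO replicate 1 or Ctrl replicate 3. Without Ribo-seq *M*-cKO replicate 2 the differences were 2.64 and 2.49. In *F*-cKO they were 2.95 and 2.98, not called, and *M*-cKO exceeded *F*-cKO by 0.87 and 0.57, not called either.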

How the results depend on the processing

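Under the alternatives run, no called mitochondrial gene changed direction. A fit of all 3 groups called 0 genes in *M*-cKO compared to Ctrl in Ribo-seq (against 2) and 0 in TE (against 2). The log2 fold changes of mt-Nd4 and mt-Nd5 stayed at 3.14 and 2.93 in Ribo-seq and at 3.79 and 3.52 in TE. In RNA-seq of *M*-cKO this fit called 10 (against 15, with mt-Nd1, mt-Nd6, mt-Co3, mt-Nd4l and mt-Tn lost). In RNA-seq of *F*-cKO it lost mt-Co2 and gained mt-Tp, where 2288 genes were higher and 1711 lower of all 17376 tested. With no filter on low counts, 7 genes were called between *M*-cKO and *F*-cKO in RNA-seq (against 0). In *F*-cKO 17 were called (against 12, with mt-Nd5, mt-Atp6, mt-Nd4l, mt-Tp and mt-Tl1 gained) and in *M*-cKO 17 (against 15, with mt-Co2 among those gained). The p-values of the unfiltered RNA-seq fits were far smaller at nearly the same fold changes, so these gains were not taken as support. Leaving out single libraries gave 0 to 3 genes in Ribo-seq of *M*-cKO compared to Ctrl, 0 to 6 in TE, 9 to 15 in RNA-seq of *F*-cKO, 12 to 17 in RNA-seq of *M*-cKO and 0 to 6 between the knockouts. The calls over all genes moved too, in RNA-seq of *F*-cKO from 984 to 1868 higher and from 559 to 1606 lower. Shares apart from Ctrl then numbered 4 to 7 in RNA-seq and 2 to 5 in Ribo-seq for *F*-cKO, a number that leaving out a library cannot lower. Genes with a higher TE level numbered 5 to 9 for *M*-cKO with a library left out. The Ribo-seq share of mitochondrial protein genes exceeded Ctrl by 0.00735 percentage points in *F*-cKO (0.000872 to 0.0112 with a library left out) and by 0.00779 in *M*-cKO (0.00184 to 0.0115); the low ends came without replicate 2 of the knockout. With the replicate number as a block, 12 genes were called in *F*-cKO and 14 in *M*-cKO RNA-seq (mt-Nd1 lost), 2 in *M*-cKO Ribo-seq (mt-Nd4 2.74, mt-Nd5 2.57) and 2 in TE, and the block changed no other call of a mitochondrial gene. Over all 16944 genes, *F*-cKO RNA-seq then had 1275 higher and 855 lower, against 1955 and 1621 without the block. The causes were not tested. The 3 to 1290 Ribo-seq counts per gene and library limit all Ribo-seq and TE statements.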
